A study of Mus musculus with 13 samples.

Results

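The 33 genes described here encode the enzymes of glycolysis and the enzymes that decide whether its product, pyruvate, goes to lactate or into mitochondria, and they were followed in mouse ES cells with and without induction of a phosphomimetic form of CTCF. They were chosen by symbol from a list of hexokinases, phosphofructokinases and their regulators, aldolases, the enzymes of the later steps, lactate dehydrogenases, pyruvate dehydrogenase kinases, the pyruvate dehydrogenase E1 subunits and phosphoglucomutases, by a rule that uses no measured value. The set itself was chosen with earlier results of these data known. All 33 of its genes were found among the 24421 genes of the count tables. The cells were clone A2 of F1-2.1, a female mouse ES line from a cross of CAST/Ei and 129/Sv/Jae mice that also carries a Tet-on transactivator, grown on γ-irradiated mouse embryonic fibroblast feeders. The clone holds a transgene that makes CTCF S224E, in which glutamate takes the place of the serine that the cell phosphorylates, when doxycycline (dox) is present. The S224E +dox group held 2 libraries from cells given 1 µg/mL dox for 6 days, and the S224E −dox group held 2 libraries from the same clone without dox. Endogenous Ctcf was present in both groups, all 4 libraries came from 1 clone, and no library of cells with dox but without the transgene was analysed here, so that effects of CTCF S224E and of dox cannot be told apart. The study's methods call the replicates biological, without saying what was kept separate between them, and the p-values measure the spread between these libraries of 1 clone.

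Glycolysis breaks glucose down to pyruvate in the cytosol and yields ATP without oxygen. Hexokinase, phosphofructokinase-1 (PFK-1) and pyruvate kinase catalyse its irreversible steps, and most steps are served by several isoforms whose genes differ in tissue and in regulation. The transcription factor HIF-1 raises many of these genes when oxygen is low, through short elements with the core ACGTG or GCGTG. Mouse ES cells rely strongly on glycolysis even when oxygen is plentiful, and pyruvate dehydrogenase kinases (PDKs) hold pyruvate back from mitochondria by switching off the pyruvate dehydrogenase complex.

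The counted reads ran from 22899107 to 30206085 per library, and 20044 genes with at least 1 read in at least 1 library were tested. Levels are given as CPM, the reads of a gene scaled to library size by TMM, and as CPM per kilobase of the counted transcript wherever genes are compared with each other. Ctcf itself, whose transcripts include those of the transgene, was at 327 and 329 CPM with dox and at 295 and 304 CPM without, a log2 fold change of 0.13 (SE 0.09, edgeR adjusted p = 0.475). The ES cell markers were expressed in all libraries, with sums over 16 genes between 6849 and 8514 CPM. Markers of the fibroblast feeders were also present and were uneven. Their sum over 28 genes was 5565 CPM in +dox replicate 1, against 3031 CPM in +dox replicate 2, and 2527 and 2912 CPM in −dox replicates 1 and 2.

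Most of the glycolytic genes had lower values with dox. The largest decreases were those of Aldoc and Eno2, isoforms that contribute little to their steps, and the abundant enzymes differed less. Summed over the 33 genes, they took 0.757% and 0.745% of all counted reads with dox and 0.895% and 0.917% without. A mean level of 1 CPM or more was reached by 32 genes, all but Hk3, and 26 of the 32 had a negative log2 fold change. Their median log2 fold change was −0.26, with −0.22 in replicate 1 and −0.29 in replicate 2, against −0.0011 over the 13911 genes at that level. Within the same 32 genes, 20 had both +dox values below both −dox values, which held for 27.7% of all genes at that level, and 4 had both above, which held for 26.1%.

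The genes that passed the test numbered 6, all of them lower with dox. They were Aldoc, Eno2, Pgm2, Pfkfb3, Pdk1 and Tpi1, with an edgeR quasi-likelihood adjusted p under 0.01 over all genes tested. These 6 of 33 genes make up 18.2%, where 0.519% of all genes tested were called lower. None was called higher, where 0.0798% of all genes were, and at an unadjusted p under 0.05 there were 17 lower and 0 higher, against 9.31% and 8.48% of all genes. DESeq2 called 8 of them lower and 0 higher, against 1.28% and 0.589% of all genes, and added Pfkl and Ldhb to the same 6. The calls were lost without −dox replicate 1 or without −dox replicate 2, as were those over all genes. The median log2 fold change of the glycolytic genes was −0.28 and −0.18 in these fits. The calls also went to 0 with edgeR's adjusted deviances (0 over all genes) and with its filterByExpr (11 over all genes). With each of these settings, 17 of the 33 genes were lower at an unadjusted p under 0.05. Over all genes, 3254 of 20044 and 3225 of 15278 passed that unadjusted p in either direction. The sign of the 6 genes was negative in every fit.

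**Figure D1:**
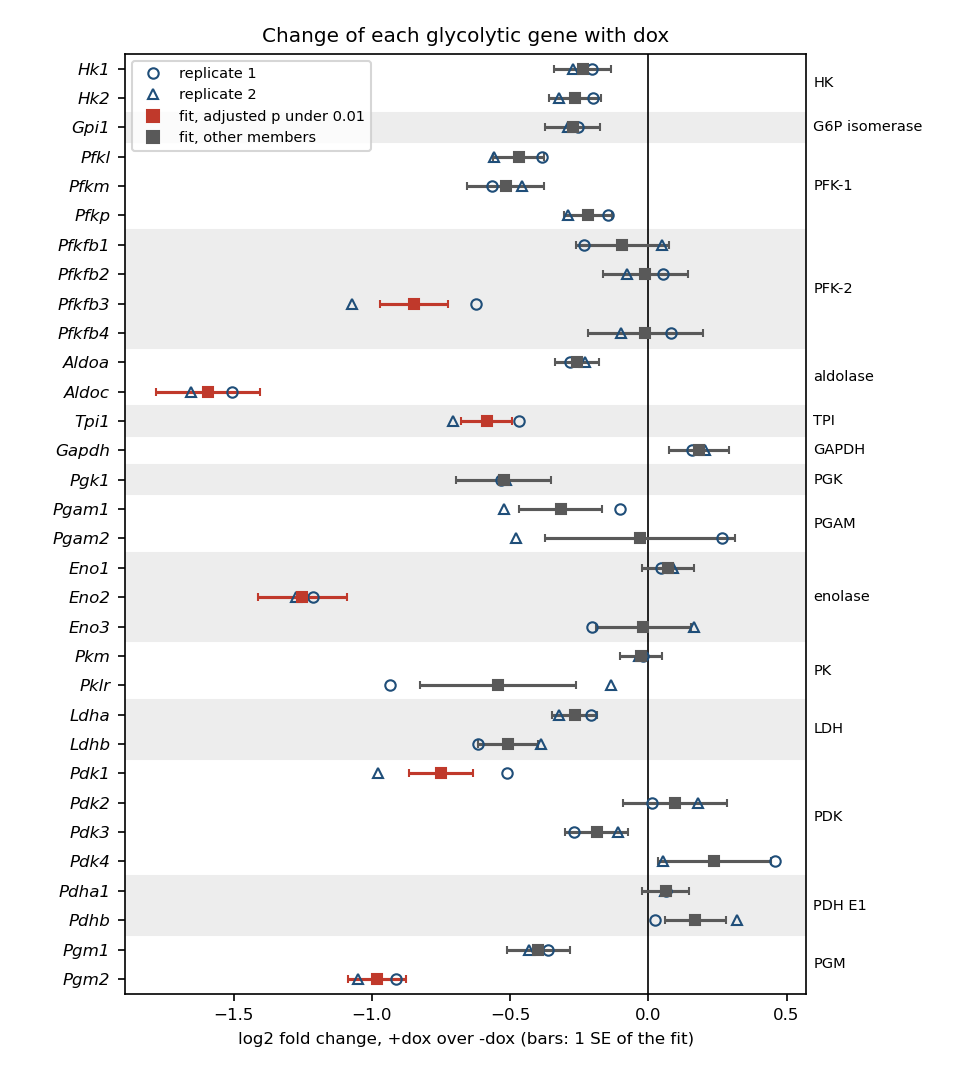
The log2 fold change of +dox over −dox (horizontal axis) is plotted for the 32 glycolytic genes that reached a mean level of 1 CPM, ordered by step. Squares are the fitted values with bars of 1 SE, red where the adjusted p was under 0.01, and open symbols are the log2 ratios within replicates 1 and 2. The 6 red genes lie between −0.58 and −1.59, and the other genes lie between −0.54 and 0.24.

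The first steps trap glucose in the cell and prepare it for cleavage. Hk2, the inducible hexokinase, was at 402 and 425 CPM with dox and 462 and 532 CPM without, with a log2 fold change of −0.27 (SE 0.09, edgeR adjusted p = 0.15). Hk1, the widely expressed hexokinase, lay between 72.5 and 90.4 CPM, with a log2 fold change of −0.24 (SE 0.10). Hk3 was near the limit of detection, with 0.131 CPM or less in every library. Both +dox values of Hk1 and of Hk2 were below both −dox values. Hk2 supplied 80.5% ± 1.5 (SD, n = 2) of the hexokinase level per length with dox and 80.7% ± 1.9 without, so that the proportions were within the spread of replicates. Gpi1, the single glucose-6-phosphate isomerase, was at 406 and 456 CPM with dox and 484 and 558 CPM without, with a log2 fold change of −0.27 (SE 0.10, edgeR adjusted p = 0.155).

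PFK-1 commits the sugar to glycolysis, and its 3 subunit genes all had lower values with dox. Pfkl, the liver-type subunit and the most abundant here per length, was at 402 and 350 CPM with dox and 525 and 516 CPM without. Its log2 fold change was −0.47 (SE 0.09), with an adjusted p of 0.0220 in edgeR and 0.00142 in DESeq2. Pfkm, the muscle type, ran from 30.0 to 33.5 CPM with dox and from 41.2 to 49.6 CPM without, with a log2 fold change of −0.52 (SE 0.14, edgeR adjusted p = 0.0716). Pfkp, the platelet type, had a log2 fold change of −0.22 (SE 0.09). Summed per length, PFK-1 was at 205 and 185 CPM per kilobase with dox and at 252 in both −dox libraries, and the share of Pfkp in it was 42.1% ± 1.5 with dox and 37.8% ± 1.4 without (SD, n = 2).

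The bifunctional PFK-2/FBPase-2 enzymes make and remove fructose-2,6-bisphosphate, the strongest allosteric activator of PFK-1. Among their 4 genes the decrease was seen in Pfkfb3, the isoform with the highest ratio of kinase to bisphosphatase activity. Pfkfb3 was at 54.2 and 46.7 CPM with dox and at 83.6 and 98.1 CPM without, so that the groups were well apart, and it fell 1.80-fold (log2 fold change −0.85, SE 0.12, edgeR adjusted p = 0.00397). Its decrease was larger in replicate 2 (−1.07) than in replicate 1 (−0.62). The log2 fold changes of Pfkfb1, Pfkfb2 and Pfkfb4 were −0.09 (SE 0.17), −0.01 (SE 0.15) and −0.01 (SE 0.21), and the libraries of both groups overlapped in each of them. The share of Pfkfb3 in the PFK-2 level per length was 42.8% and 38.5% with dox and 51.4% and 56.8% without. In +dox replicate 2 it came below Pfkfb1, which held 40.1%.

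**Figure D2:**
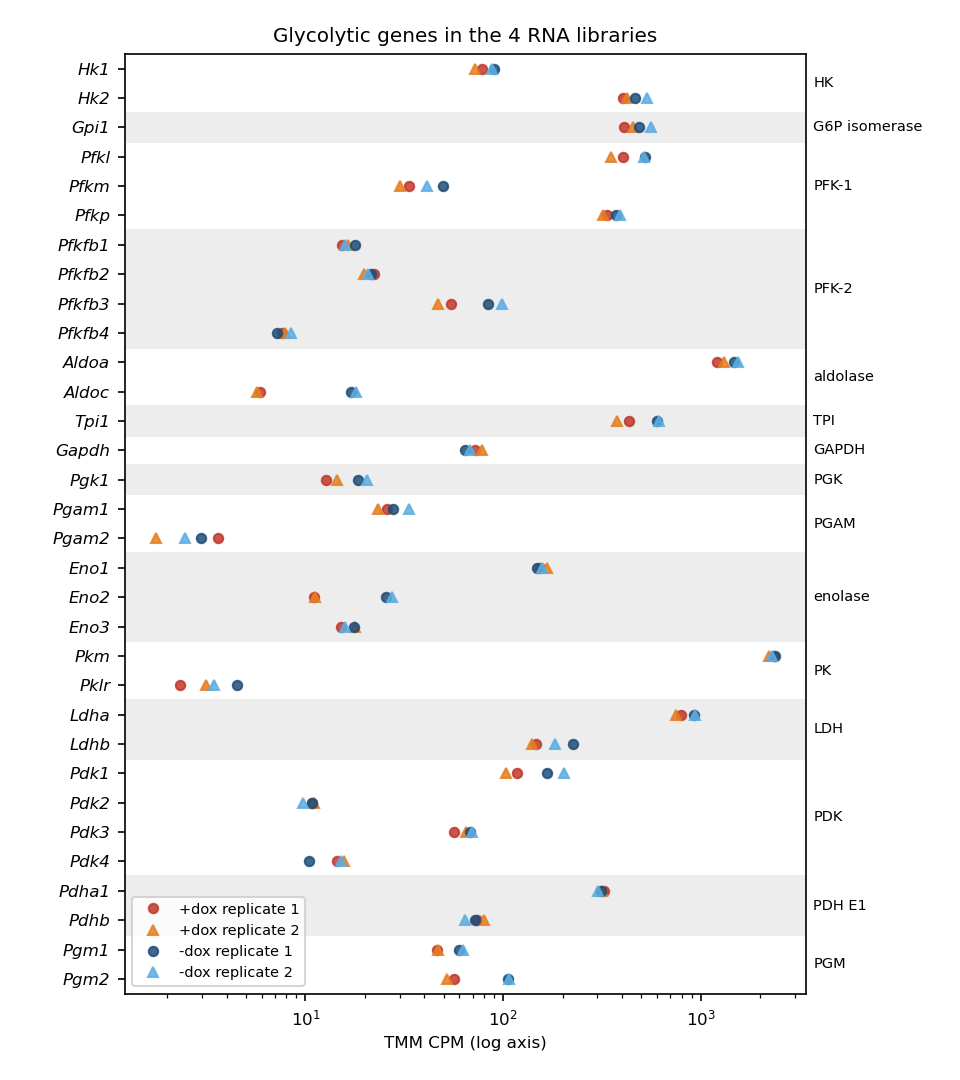
TMM CPM on a log axis is plotted for the same 32 genes in the 4 libraries, ordered by step. The +dox symbols (red and orange) of Aldoc, Eno2 and Pgm2 stand clear of the −dox symbols (blue). The symbols of Pkm, which had the highest counted level of these genes, overlap between 2223 and 2382 CPM.

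Aldolase cleaves the 6-carbon sugar into 2 trioses, and Aldoa and Aldoc encode the muscle and the brain form. Aldoc showed the largest decrease of all 33 genes. It was at 5.91 and 5.69 CPM with dox (133 and 130 reads) and at 16.9 and 18.1 CPM without (517 and 454 reads), and it fell 3.02-fold (log2 fold change −1.59, SE 0.19, edgeR adjusted p = 0.00127). Aldoc nevertheless contributed only 0.683% of the aldolase level per length without dox and 0.272% with dox. Aldoa, which made up the rest, was at 1212 and 1307 CPM with dox and 1476 and 1534 CPM without, with a log2 fold change of −0.26 (SE 0.08, edgeR adjusted p = 0.108). The summed aldolase level was therefore 801 ± 42.6 CPM per kilobase with dox and 962 ± 26.1 without (SD, n = 2).

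Tpi1, the enzyme that interconverts the trioses, was the most abundant gene that passed the test. It was at 435 and 378 CPM with dox and 602 and 617 CPM without, and it fell 1.5-fold (log2 fold change −0.58, SE 0.09, edgeR adjusted p = 0.00636). Gapdh, the next enzyme, lay on the other side, at 71.8 and 78.6 CPM with dox and 64.3 and 68.1 CPM without (log2 fold change 0.18, SE 0.11, edgeR adjusted p = 0.419). Both of its +dox values exceeded both −dox values, although the difference did not pass the test. Pgk1, which makes the first ATP of the pathway, was at 12.7 and 14.4 CPM with dox and 18.4 and 20.6 CPM without, a log2 fold change of −0.52 (SE 0.17, edgeR adjusted p = 0.122). Pgam1, the main phosphoglycerate mutase, was at 25.9 and 23.2 CPM with dox and 27.8 and 33.4 CPM without (log2 fold change −0.32, SE 0.15, edgeR adjusted p = 0.299). Pgam2, the muscle form, was at 3.60 CPM or less in every library and its values overlapped.

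The levels of Gapdh, Pgk1, Pgam1 and Eno1 may be understated by the counting of unique reads. Reads were sequenced in pairs, which span more than 1 word of the read length, and the loss of reads was not measured. Their transcripts have many processed copies in the mouse genome, and among all words of 50 bases, the read length, 85.6%, 92.9%, 91.9% and 58.1% also occurred elsewhere in mm9. For Pkm the value was 41.4%, for Pdhb 34.8%, for Ldha 33.8%, for Ldhb 33.6% and for Gpi1 31.4%. For Tpi1 it was 23.7%, and for Aldoc, Eno2, Pgm2, Pfkfb3 and Pdk1 it was 1.19% or less. Comparisons of the same gene between libraries use the same unique stretches, but levels of different steps cannot be ranked across these genes.

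Enolase makes phosphoenolpyruvate, and Eno1, Eno2 and Eno3 are its ubiquitous, neuronal and muscle isoforms. Eno2 was at 11.0 and 11.2 CPM with dox and 25.7 and 27.3 CPM without, with replicates close together and the groups far apart. It fell 2.38-fold (log2 fold change −1.25, SE 0.16, edgeR adjusted p = 0.00188). Eno1 was at 153 and 167 CPM with dox and 148 and 156 CPM without (log2 fold change 0.07, SE 0.09, edgeR adjusted p = 0.735). Eno3 lay between 15.2 and 17.7 CPM in all libraries, with a log2 fold change of −0.02 (SE 0.17). The share of Eno2 in the enolase level per length was 3.80% ± 0.19 with dox and 8.92% ± 0.14 without (SD, n = 2), while the summed level was 105 ± 6.52 and 107 ± 2.91 CPM per kilobase. The share of Eno2 may be an upper estimate, since reads of Eno1 may have been lost to its copies.

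Pkm, which encodes the muscle-type pyruvate kinases of proliferating and adult tissues, held the highest counted level of the 33 genes and differed little between the groups. It was at 2348 and 2223 CPM with dox and at 2382 and 2278 CPM without, a log2 fold change of −0.03 (SE 0.08, edgeR adjusted p = 0.882). The counts do not separate its splice forms. Pklr, the liver and red cell enzyme, was at 4.49 CPM or less and made up 0.110% of the step with dox and 0.155% without.

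Lactate dehydrogenase turns pyruvate into lactate and regenerates NAD+. Ldha, the isoform that favours lactate, was at 797 and 745 CPM with dox and 922 and 932 CPM without, with a log2 fold change of −0.27 (SE 0.08, edgeR adjusted p = 0.103). Ldhb, the heart form, was at 147 and 140 CPM with dox and 224.4 and 183 CPM without. Its log2 fold change was −0.51 (SE 0.11), with an adjusted p of 0.0301 in edgeR and 0.00446 in DESeq2. Ldha supplied 81.4% of the step per length with dox and 76.7% without in replicate 1, and 79.2% and 78.5% in replicate 2. It was counted on transcripts of 1613 bases in replicate 1 and 1806 bases in replicate 2, and is the only one of the 33 genes whose counted transcript differed between the tables, so its level per length can be compared only within a replicate.

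The 4 PDKs restrain pyruvate dehydrogenase, and Pdk1, a HIF-1 target, was the one that passed the test. Pdk1 was at 117 and 104 CPM with dox and 167 and 204 CPM without, and it fell 1.68-fold (log2 fold change −0.75, SE 0.11, edgeR adjusted p = 0.00546). The decrease was −0.51 in replicate 1 and −0.98 in replicate 2. Pdk3 was at 56.4 and 64.5 CPM with dox and 68.0 and 69.7 CPM without (log2 fold change −0.19, SE 0.11, edgeR adjusted p = 0.436). Pdk2 and Pdk4 had log2 fold changes of 0.10 (SE 0.19) and 0.24 (SE 0.20), and the values of Pdk4 were 14.4 and 15.7 CPM with dox against 10.4 and 15.1 CPM without. Per length, Pdk1 made up 35.0% ± 3.8 of the 4 kinases with dox and 45.4% ± 2.8 without, and Pdk3 49.8% ± 3.6 and 44.1% ± 2.8 (SD, n = 2). By group mean the leading kinase was thus Pdk1 without dox and Pdk3 with dox, but in −dox replicate 1 Pdk3 was already ahead, with 46.0% against 43.5%, and in CPM without division by length Pdk1 led in all 4 libraries. The subunits of their substrate, the pyruvate dehydrogenase E1 enzyme, were not called. Pdha1 was at 325 and 315 CPM with dox and 311 and 302 CPM without (log2 fold change 0.06, SE 0.09, edgeR adjusted p = 0.735), and Pdhb was at 73.7 and 80.4 CPM against 72.5 and 64.4 CPM (log2 fold change 0.17, SE 0.11, edgeR adjusted p = 0.476).

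**Figure D3:**
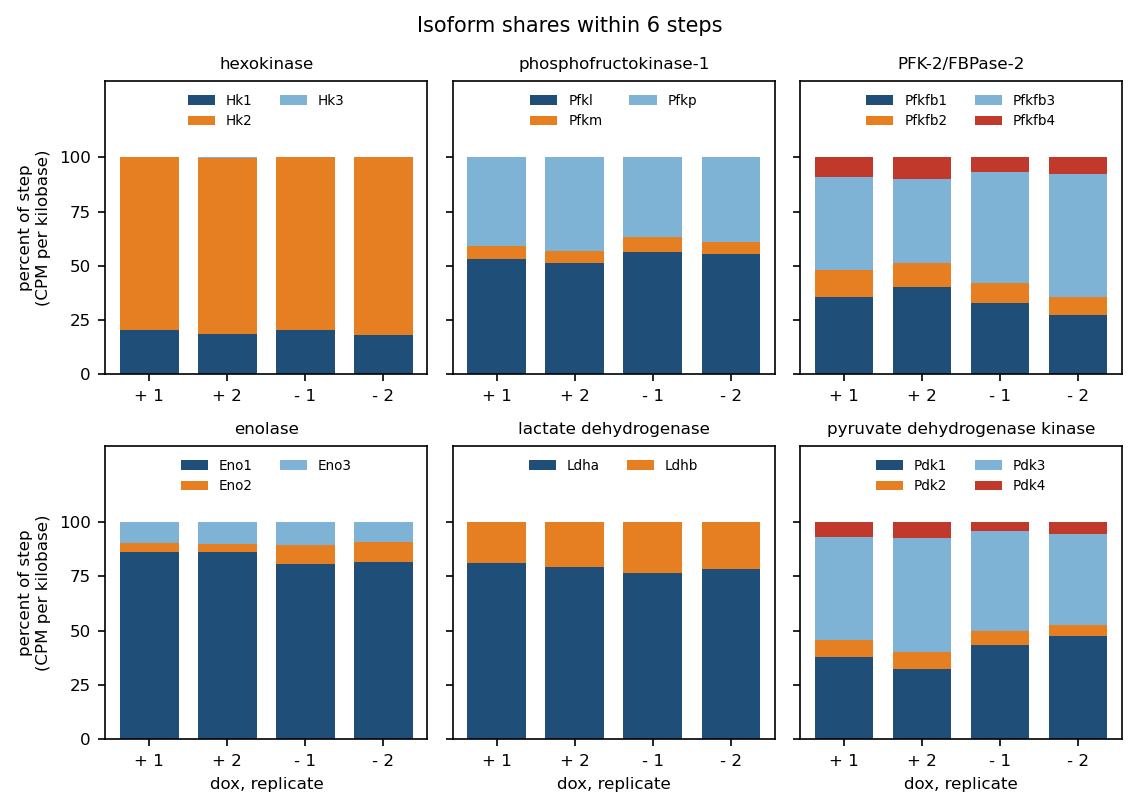
Stacked bars give each isoform as a percent of the summed CPM per kilobase of its step in the 4 libraries (+ and − for dox, then the replicate). The Pfkfb3, Eno2 and Pdk1 segments are smaller in both +dox bars than in both −dox bars, and the hexokinase bars are nearly alike.

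Phosphoglucomutase links glycolysis to glycogen by moving the phosphate of glucose between carbons. The gene listed as Pgm2, which the RefSeq table names Pgm1, had the lowest adjusted p of the 33 genes. It was at 56.3 and 51.7 CPM with dox and 106 and 107 CPM without, and it fell 1.97-fold (log2 fold change −0.98, SE 0.11, edgeR adjusted p = 0.000653). The gene listed as Pgm1, which RefSeq names Pgm2, was at 46.5 and 46.7 CPM with dox and 59.8 and 63.0 CPM without (log2 fold change −0.40, SE 0.11, edgeR adjusted p = 0.0823). Values of both genes were separated between the groups. Exons of Pgm2 and Tpi1 overlap those of Itgb3bp and Spsb2 on the other strand, and 8 of the 33 genes have such an antisense neighbour. Whether the counting used strand is not stated in the sources used here, so reads of these neighbours cannot be told apart from theirs.

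Summed by step, 13 of 15 steps had a lower mean with dox, and in 11 of them both +dox sums were below both −dox sums. Among all single genes at a mean of 1 CPM or more, 27.7% had both +dox values below both −dox values. For phosphoglycerate mutase, 1 of the 11, the replicate 1 sums were close, at 18.2 CPM per kilobase with dox and 18.5 without. Lactate dehydrogenase is also among the 11, although its level per length is comparable only within a replicate. The enolase and pyruvate kinase sums overlapped between the groups. The Gapdh level and the sum of the pyruvate dehydrogenase E1 subunits were higher with dox in both replicates. The log2 ratios of the sums ran from −0.73 for phosphoglucomutase and −0.58 for triosephosphate isomerase to 0.18 for Gapdh. PFK-2 was at −0.44, and PFK-1 and the PDKs were at −0.37. Lactate dehydrogenase was at −0.29 within replicate 1 and −0.34 within replicate 2.

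The 6 called genes lie on chromosomes 2, 4, 6 and 11, and Eno2 and Tpi1 are neighbours with 40918 bases between them. In mm9, Eno2 spans chr6:124710071-124719691 and Tpi1 chr6:124760610-124764314, both on the minus strand. Aldoc spans chr11:78136575-78141280 on the plus strand, Pgm2 chr4:99602056-99659899 on the plus strand, Pfkfb3 chr2:11393058-11423717 on the minus strand and Pdk1 chr2:71711281-71741915 on the plus strand.

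The promoters of these genes were searched for the HIF core, spelled ACGTG or GCGTG on either strand, in windows of 300 bases (250 before the start and 50 after) from the RefSeq table of GRCm38.p6. Of the 53 windows of the 33 genes, 71.7% held a core, against 55.1% of the 18720 windows of all genes tested. Among windows of called genes the share was 66.7% (6 of 9), and among those of the other genes it was 72.7% (32 of 44), so that the share was not higher among called genes. Some genes have several windows, in part overlapping, so the windows are not separate promoters. Of windows at the counted start, 84.8% (28 of 33) held a core, a share that was not computed for all genes. Base composition was not matched in any of these shares. The 250 bases before the counted start are shown for 4 called genes with a core, and for Ldha, which was not called and holds the most cores of the windows at a counted start, 5 in its 300 bases. Cores are in capitals, a core on the other strand reads CACGT or CACGC, and CACGTG holds a core on both strands and is also the E-box that MYC binds. The window of Eno2 at its counted start held none, nor did the only window of Tpi1, which is not at its counted start, and this says only that these letters were not in those windows.
Pgm2, chr4:99929201-99929450, plus strand: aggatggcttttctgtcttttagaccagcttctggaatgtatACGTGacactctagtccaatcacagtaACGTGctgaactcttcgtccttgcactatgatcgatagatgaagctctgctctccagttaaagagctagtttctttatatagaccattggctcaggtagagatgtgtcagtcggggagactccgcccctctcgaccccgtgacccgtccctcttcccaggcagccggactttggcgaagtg
Pfkfb3, chr2:11502091-11502340, minus strand: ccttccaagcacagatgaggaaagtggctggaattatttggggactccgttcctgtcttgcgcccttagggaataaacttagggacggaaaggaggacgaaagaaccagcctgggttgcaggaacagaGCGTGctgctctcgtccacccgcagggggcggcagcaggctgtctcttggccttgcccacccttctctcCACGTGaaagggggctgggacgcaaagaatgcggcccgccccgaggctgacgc
Aldoc, chr11:78322823-78323072, plus strand: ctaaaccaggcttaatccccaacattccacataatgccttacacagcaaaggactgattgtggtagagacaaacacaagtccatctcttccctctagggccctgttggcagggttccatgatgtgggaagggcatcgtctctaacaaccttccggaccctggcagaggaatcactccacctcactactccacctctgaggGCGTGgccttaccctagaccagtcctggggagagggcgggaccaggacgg
Pdk1, chr2:71872974-71873223, plus strand: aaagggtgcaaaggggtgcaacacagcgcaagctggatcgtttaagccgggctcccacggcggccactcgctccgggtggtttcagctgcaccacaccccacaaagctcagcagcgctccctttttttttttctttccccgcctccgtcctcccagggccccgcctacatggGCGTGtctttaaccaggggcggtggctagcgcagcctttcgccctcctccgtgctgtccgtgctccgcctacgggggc
Ldha, chr7:46845554-46845803, plus strand: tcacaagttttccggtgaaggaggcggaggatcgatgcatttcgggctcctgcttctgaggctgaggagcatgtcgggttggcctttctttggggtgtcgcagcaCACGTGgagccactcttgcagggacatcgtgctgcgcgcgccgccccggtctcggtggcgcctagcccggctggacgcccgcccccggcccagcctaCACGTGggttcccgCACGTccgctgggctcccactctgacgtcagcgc
Pgm2, called lower with dox, has a pair of ACGTG cores far from its start, and Pfkfb3 has a CACGTG and a GCGTG core. Aldoc and Pdk1 have a single GCGTG core each in these bases. Ldha has CACGTG at 2 positions and a log2 fold change of −0.27 that did not pass the test.

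Of the 44 other genes of glucose metabolism that were listed, which cover gluconeogenesis, the pentose phosphate pathway, glycogen metabolism, pyruvate transport and the rest of the pyruvate dehydrogenase complex, 42 were tested and 1 was called. This was Pygl, the liver glycogen phosphorylase, at 6.93 and 4.16 CPM with dox and 16.6 and 21.2 CPM without (log2 fold change −1.76, SE 0.25, edgeR adjusted p = 0.00309). The 36 that reached a mean level of 1 CPM had a median log2 fold change of −0.09. DESeq2 also called 1 lower and 0 higher, and at an unadjusted p under 0.05 edgeR gave 5 lower and 1 higher. Over all genes tested, 0.519% were called lower by edgeR and 1.28% by DESeq2. At that unadjusted p, 9.31% of all genes were lower and 8.48% higher in edgeR.

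Known hypoxia-induced genes outside glycolysis and its pyruvate control were read in the same libraries. Of 25 such genes 7 were called lower and 0 higher by edgeR, and 14 lower and 0 higher by DESeq2. Over all genes tested, the shares called lower were 0.519% by edgeR and 1.28% by DESeq2. At an unadjusted p under 0.05 in edgeR, 17 were lower and 0 higher, against 9.31% and 8.48% of all genes. The 24 listed genes that reached a mean level of 1 CPM had a median log2 fold change of −0.72. A negative value was held by 22 of them, against 6978 of the 13911 genes at that level. Kdm3a (0.08) and Plod1 (0.10) had positive values. By lowest p the called genes were led by Slc16a3, the lactate exporter MCT4, which was at 118 and 101 CPM with dox and 247 and 266 CPM without (log2 fold change −1.23, SE 0.10, edgeR adjusted p = 0.000112). Egln3, a HIF prolyl hydroxylase, had a log2 fold change of −1.99 and Ndrg1, a stress-induced gene, of −1.42. Bnip3, a mitophagy receptor, and Bhlhe40, a transcriptional repressor, had −1.32 and −1.11. Slc2a3, the glucose transporter GLUT3, was also called (log2 fold change −0.71, SE 0.10, edgeR adjusted p = 0.00364). Slc2a1, the transporter GLUT1, was at 507 and 571 CPM with dox and 731 and 1003 CPM without, with an adjusted p of 0.0177 in edgeR and 0.00034 in DESeq2. The median of the list in replicate 1 was −0.51 and that in replicate 2 was −0.98. All 6 called glycolytic genes had the larger decrease in replicate 2. Their gap between replicates was widest for Pdk1 (−0.51 against −0.98) and narrowest for Eno2 (−1.21 against −1.28). How often other lower genes had this order was not counted, and a cause shared with the hypoxia-induced genes was not tested.

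The 13 listed regulators of glycolysis held no edgeR call. At an unadjusted p under 0.05 in edgeR, 3 were higher and 0 lower, against 8.48% and 9.31% of all genes. Hif1a itself was at 228 and 186 CPM with dox and 236 and 229 CPM without (log2 fold change −0.17, SE 0.11, edgeR adjusted p = 0.458), and Myc at 111 and 112 CPM against 94.1 and 81.3 CPM (log2 fold change 0.34, SE 0.11, edgeR adjusted p = 0.107). DESeq2 called 2 of the 13 regulators higher, against 0.589% of all genes. These were Epas1, which encodes HIF-2α (edgeR log2 fold change 0.50, DESeq2 adjusted p = 0.00109), and Trp53, which encodes p53 (edgeR log2 fold change 0.41, DESeq2 adjusted p = 0.000735). HIF-1α is controlled mostly through the stability of the protein, which RNA counts do not measure.

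Markers of other cell states and cell types were read in the same comparison. Of 12 primitive streak markers 7 were called lower with dox by edgeR, against 0.519% of all genes tested. The markers had a median log2 fold change of −1.71. The called genes were led by Lhx1 (−4.27), T (−3.13), Cer1 (−5.55), Fgf8 (−2.38) and Eomes (−1.71). The sum of the 12 markers was 172 and 173 CPM with dox and 304 and 317 CPM without. Of 16 ES cell markers none was called by edgeR or DESeq2 (6 higher and 1 lower in edgeR at an unadjusted p under 0.05), and their median log2 fold change was 0.13. Of 28 feeder markers, all with reads in every library, none was called by edgeR and 1 was called higher by DESeq2. At an unadjusted p under 0.05 in edgeR, 22 were higher and 0 lower. At that unadjusted p, 8.48% of all genes tested were higher and 9.31% lower, and DESeq2 called 0.589% higher. The feeder median was 1.47 in replicate 1 and 0.29 in replicate 2. Without +dox replicate 1, the library with the highest sum of feeder markers, the median log2 fold change of the glycolytic genes was −0.28. In that fit the 6 called genes lay between −0.69 for Tpi1 and −1.62 for Aldoc. It holds a single +dox library, and the part of feeder RNA in the result was not tested. The part of the primitive streak markers and of the hypoxia-induced genes in the result was not tested, and in bulk RNA fewer cells of a type and less RNA per cell cannot be told apart.

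**Figure D4:**
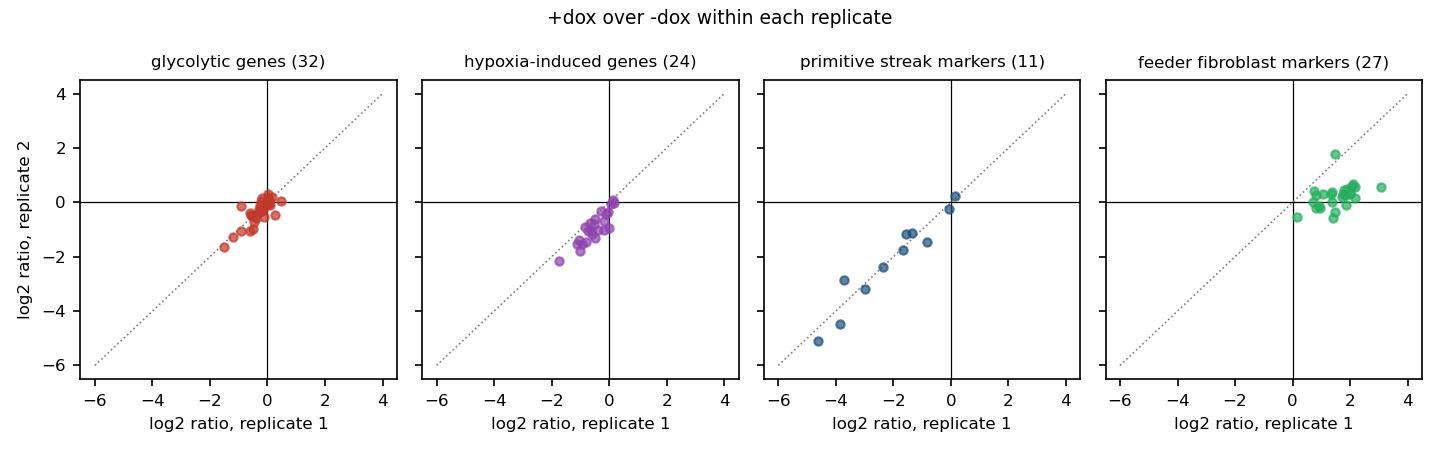
Each panel plots the log2 ratio of +dox over −dox in replicate 1 (horizontal axis) against replicate 2 (vertical axis) for the genes of 1 list that reached a mean level of 1 CPM, and the dotted line marks equal ratios. Glycolytic genes, hypoxia-induced genes and primitive streak markers lie mostly below 0 on both axes, and the feeder markers lie to the right of 0 in replicate 1, with 20 of 27 above 0 in replicate 2.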

How the data were processed

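Polyadenylated RNA was sequenced after a directional library preparation. The authors used cutadapt for trimming and TopHat2 for alignment to mm9, discarded PCR duplicates, and deposited the raw counts that HOMER gave for uniquely aligned exon reads, 1 table for each replicate. Tool versions and the use of strand are not given in the sources used here.

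Both tables were matched on symbols, and a gene was kept if any library held 1 count or more (20044 genes). The main test was edgeR's quasi-likelihood test (version 4.0.16, R 4.3.3) after TMM scaling, with defaults and no replicate block, and Benjamini-Hochberg adjustment over all genes with a threshold of 0.01. Log2 ratios within a replicate used a prior count of 2. The scripts were tested on simulated data. Replicates differed by more than sampling noise (chi-square per degree of freedom 19.2 with dox, 13.2 without). Levels per length and isoform shares carry no test.

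The 33 genes are found by symbol alone, but this set, the lists and the tests were chosen with earlier results of these data known. Genes given with each library's value were those called by edgeR or DESeq2, the 5 highest and 5 lowest log2 fold changes and the leading isoform of each step, and from other lists at most 5 called genes by lowest p. Any other gene was added after its values were seen. Alternatives were DESeq2 1.42.0 (the authors' tool), edgeR's likelihood ratio test, adjusted deviances and filterByExpr, a replicate block, other scalings, a threshold of 0.05 and leaving out each library. ChIP-seq and Hi-C data were not used here.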

Additional observations from a re-analysis of the deposited data

How the results depend on the processing

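Of 32 glycolytic genes, 26 had a negative log2 fold change with each other test, scaling and filter, and 23 to 25 had one when a library was left out. The 6 called genes numbered 8 with DESeq2, the likelihood ratio test or a threshold of 0.05 and 9 with a replicate block, and 0 with adjusted deviances or filterByExpr. A fit without 1 library leaves a single library in its group, which is assumed to vary like the other group. The calls were lost without either −dox library, as were those over all genes. They were not lost without either +dox library, where calls over all genes rose as well. The median log2 fold change ran from −0.28 to −0.18 when a library was left out, the smallest without −dox replicate 2, and was −0.30 with total counts.

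Over all genes, 120 calls (16 higher, 104 lower) became 573 at a threshold of 0.05 (186 and 387), 375 with DESeq2 (118 and 257), 457 with the likelihood ratio test (130 and 327), 0 and 0 with adjusted deviances (3254 genes at an unadjusted p under 0.05) and 11 with filterByExpr (0 and 11, with 3225). With total counts 5 were higher. With a replicate block there were 786 (316 and 470). The replicate numbers are not stated to pair the libraries, whose same-numbered deviations had a correlation of 0.196 over 2 pairs. Without 1 library the calls ran from 0 to 992 (0 to 519 higher, 0 to 696 lower).

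Small differences changed sign when a library was left out, from −4.31 to 0.52 for Hk3, −0.102 to 0.0742 for Pfkfb2, −0.129 to 0.113 for Pfkfb4, −0.64 to 0.40 for Pgam2, −0.135 to 0.0871 for Eno3, −0.069 to 0.011 for Pkm and −0.00626 to 0.524 for Pdk4. No called gene did so. The leading isoform differed between groups in 1 of 9 steps, in 0 by CPM without division by length, and in 0 to 2 without 1 library. Causes were not tested.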
